A study of Mus musculus with 8 samples.

Results

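Expression of 47 genes of the DNA damage checkpoints and of DNA repair was examined in mouse common lymphoid progenitors (CLPs), the bone marrow cells from which B, T and natural killer cells descend. The genes were taken by symbol, not by their values, from the 39179 gene IDs listed per library, and 47 of 47 were found. They comprise 4 checkpoint kinases, 7 genes of break sensing and chromatin signalling, 9 of homologous recombination, 6 of crosslink repair, 3 of mismatch repair, 9 of base excision and single-strand break repair and 9 of nucleotide excision repair. End joining of V(D)J breaks was not included. The 8 libraries came from C57BL/6 cells, and the labels name no altered allele and no drug. A first set of 4, ex vivo CLP, was sorted directly from bone marrow. The other 4, cCLP, were also of bone marrow origin and had been kept for 2 months on the OP9 stromal line with Flt3 ligand and little IL-7 before the sort. Both were gated as lineage-negative, Flk2+, IL7R+, CD27+ and Ly6d-. Neither the animals nor the number of cultures behind the libraries are named, so all p-values measure only the spread between these libraries.

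Repair pathways divide the lesions among them. Atm and Atr kinases sense breaks and stalled replication forks and halt the cell cycle through Chek2 and Chek1, homologous recombination and the Fanconi anaemia proteins rebuild broken or crosslinked DNA around S phase, and mismatch, base excision and nucleotide excision repair remove mispaired, chemically altered or bulky bases. In lymphoid progenitors these pathways act in cells that divide quickly and that, later in their development, cut and mutate their own antigen receptor genes. Many genes of recombination and crosslink repair are transcribed together with the replication machinery.

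Upstream sequences of 4 members are shown first. In the comparisons of 6 libraries given further on, Neil3 was lower and Msh6 and Parp1 higher in the cultured cells, and Brca2 was lower only in a fit over every gene that was added with the values known. Neil3 was tested there only because its values in ex vivo CLP libraries were higher. The sequences give a view of promoters of these genes. Each is the 250 bases before the most upstream transcription start in RefSeq (GRCm38.p6), written 5' to 3' on the strand of the gene, and none of the 4 windows touches an annotated exon. Brca2 lies at chr5:150522371-150522620 (plus strand), Neil3 at chr8:53639066-53639315 (minus strand), Msh6 at chr17:87974800-87975049 (plus strand) and Parp1 at chr1:180568641-180568890 (plus strand). Capitals mark exact matches, on either strand, to the motifs searched. These were E2F (TTTCCCGC, TTTGGCGC or TTTCGCGC), the cell cycle element CHR (TTTGAA or TTCGAA), NFY (CCAAT), the NRF1 core (CGCATGCG), ETS (CCGGAAGT) and CRE (TGACGTCA).
Brca2: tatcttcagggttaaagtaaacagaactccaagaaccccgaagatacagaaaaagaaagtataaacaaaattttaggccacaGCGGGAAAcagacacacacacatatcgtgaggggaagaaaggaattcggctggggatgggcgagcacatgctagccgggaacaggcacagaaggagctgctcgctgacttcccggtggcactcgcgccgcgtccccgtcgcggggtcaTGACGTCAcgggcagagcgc
Neil3: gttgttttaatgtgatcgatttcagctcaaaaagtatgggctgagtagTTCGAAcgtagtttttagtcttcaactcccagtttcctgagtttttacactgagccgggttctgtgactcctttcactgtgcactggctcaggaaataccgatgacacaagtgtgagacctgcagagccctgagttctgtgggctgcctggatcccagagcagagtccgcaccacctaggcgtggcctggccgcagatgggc
Msh6: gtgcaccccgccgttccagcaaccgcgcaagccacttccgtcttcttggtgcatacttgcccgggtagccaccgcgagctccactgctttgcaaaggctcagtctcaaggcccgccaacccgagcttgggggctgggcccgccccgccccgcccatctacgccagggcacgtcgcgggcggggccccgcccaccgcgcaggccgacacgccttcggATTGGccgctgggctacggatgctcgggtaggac
Parp1: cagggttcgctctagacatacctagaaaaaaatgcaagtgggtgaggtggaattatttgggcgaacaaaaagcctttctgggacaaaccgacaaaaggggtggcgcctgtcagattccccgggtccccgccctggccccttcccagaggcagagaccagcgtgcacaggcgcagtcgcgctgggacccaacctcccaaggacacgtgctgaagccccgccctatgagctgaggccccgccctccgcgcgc
In Brca2 the capitals are an E2F match 168 bases and a CRE match 20 bases before the start. Neil3 carries a CHR match at 202 bases, Msh6 an NFY match at 34 bases, and Parp1 no match to any of the letters searched.

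Promoters of 39 members were in the RefSeq table, and the motifs were counted in windows of 300 bases, the 250 above plus 50 after the start. Ercc3, Exo1, Nbn, Ddb2, Fancd2, Polb, Rad50 and Xpc had no entry. E2F letters stood in 7 of 39 windows (17.9%), against 1.91% of 27025 windows of the same length over all genes. The 7 are Bard1, Brca2, Rad51c, Msh6, Msh3, Chek2 and Mdc1. Of these, Bard1, Brca2 and Rad51c had lower values in the cultured cells and Msh6 higher ones in the fit over every gene given further on, and Msh3, Chek2 and Mdc1 were not called there. In that fit 36.4% of all genes were called, 16.3% higher and 20.1% lower. Bard1, Brca2 and Rad51c had values too low for the main comparison, Rad51c with deposited values of 1 to 3. A link between the letters and the changes was not tested. In Msh6 the E2F letters lie after the start and so outside the stretch printed. NFY letters stood in 21 of 39 (53.8% against 38.0% over all genes), CHR in 15.4% against 19.5%, ETS in 10.3% against 3.99%, NRF1 in 5.13% against 1.92% and CRE in 2.56% against 1.85%. A match describes the letters in the window and no more.

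The deposited values are whole numbers per gene on an unnamed scale. They varied less between replicates than read counts can, so the depth behind them is unknown and no counting interval can be given. They summed to between 378594 and 704305 per library, and 11371 to 12779 genes were above 0. Values below are scaled values, the deposited number divided by a library factor of 0.816 to 1.38. Whether they are adjusted for gene length is not known, so levels are compared between libraries and never between genes.

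A pair of libraries did not lie with their labels. Across 8303 genes outside all repair lists, the library labelled ex vivo CLP 2 had a Spearman's rho of 0.771 to 0.83 with those of its own label and of 0.965 to 0.986 with cCLP 2, 3 and 4. The library labelled cCLP 1 had a rho of 0.813 to 0.824 with those of its own label and of 0.954 to 0.98 with ex vivo CLP 1, 3 and 4. These values are across genes, which are not independent, and carry no test. Results for the members tested are therefore given for all 8 libraries as labelled and for the 6 without this pair, and neither library was assigned to the other group. Lists of other genes are described mainly over the 6, and 0 of their genes were called over the 8. The choice of the 6 was made with results of these data known, and p-values over them are conditional on it. Below, ex vivo CLP 1, 3 and 4 are called the fresh libraries, cCLP 2, 3 and 4 the cultured libraries, and values are given in that order. Of the 4 sort genes, Flt3 and Cd27 were not called in the comparison of 6 libraries given further on. Il7r stood at 74.8, 17.3 and 17.4 in the fresh libraries and at 224.3, 196 and 217.3 in the cultured ones, higher in the latter by 2.86 on the log2 scale (limma adjusted p = 0.00456). Ly6d, which the gate was set to lack, stood at 34.3, 34.6 and 29.8 against 1.05, 0.961 and 0.849 (log2 fold change -4.12). It was tested over the 6 only because the fresh values were higher. The library labelled ex vivo CLP 2 was at 213.4 for Il7r and 0 for Ly6d, and cCLP 1 was at 26.8 and 21.0. Over the 8 libraries as labelled neither gene was called (limma adjusted p = 0.488 for each). Of the stromal markers 9 of 12 were listed at 0 in all 8 libraries.

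**Figure D1:**
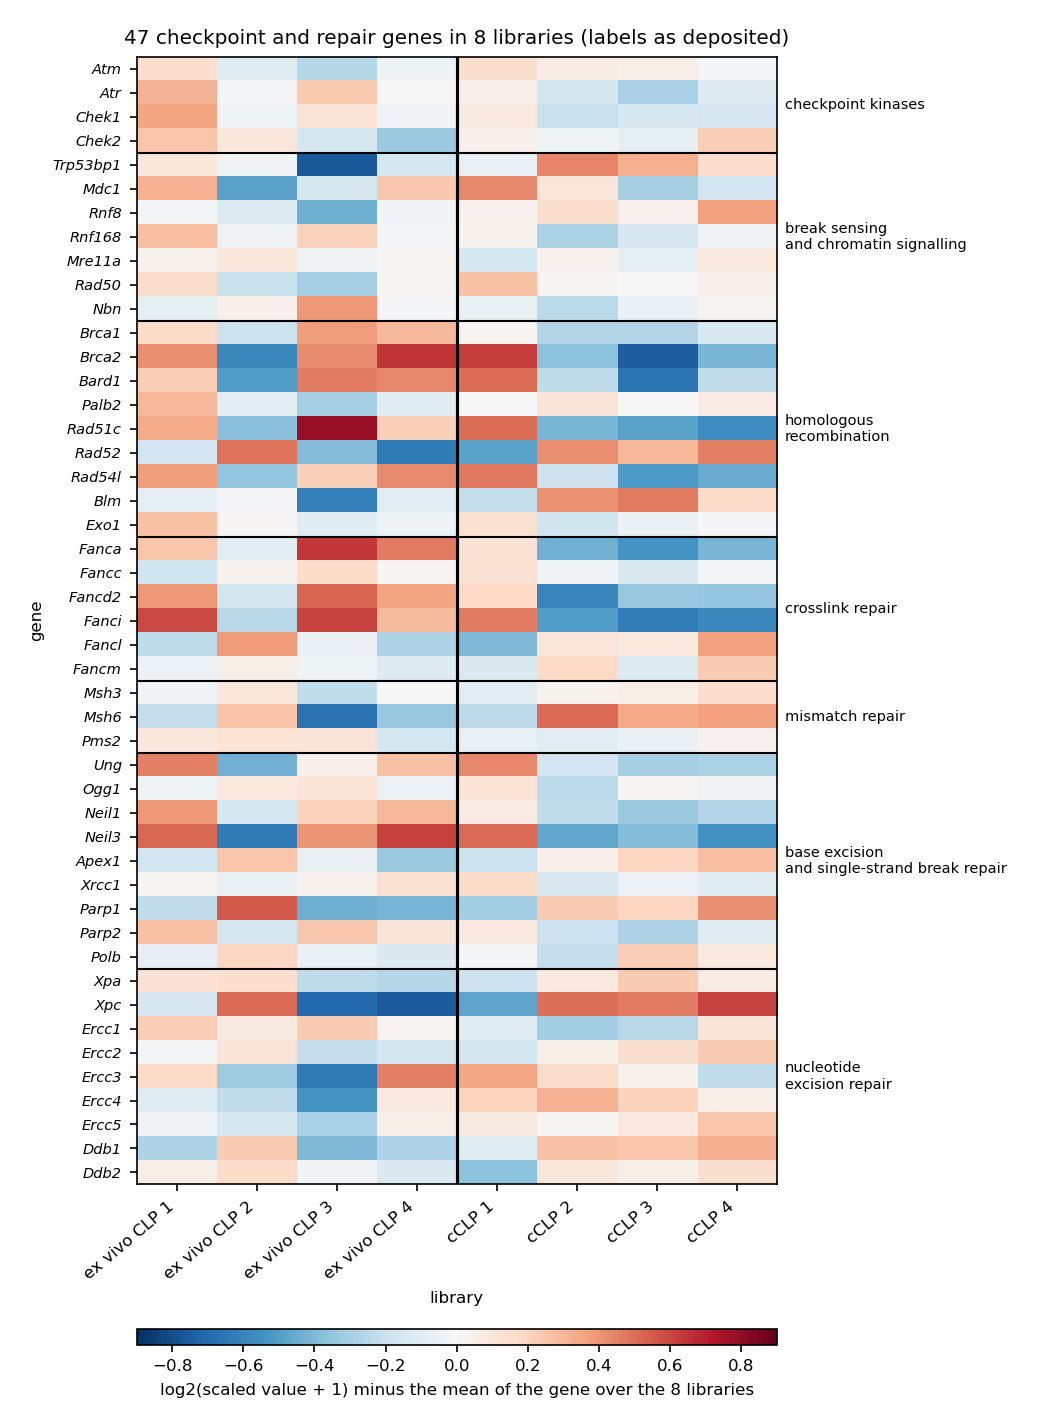
Each row is 1 of the 47 genes and each column 1 library under its deposited label. Colour gives log2(scaled value + 1) minus the gene's mean over the 8 libraries, and black lines separate the roles and the labelled groups. The column labelled ex vivo CLP 2 is red or blue where cCLP 2 to 4 are in Fanci, Neil3, Xpc and Parp1, and the column labelled cCLP 1 is where ex vivo CLP 1, 3 and 4 are.

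Over the 8 libraries as labelled, 0 of 31 members tested were higher or lower in cCLP by limma at a Benjamini-Hochberg adjusted p below 0.05, and 0 of 6486 genes were (0.0%). An unadjusted p below 0.05 was reached by 2 members, Atr (0.0495) and Fancd2 (0.0347), against 7.35% of all genes tested. Log2 fold changes of the members tested, cCLP minus ex vivo CLP, ran from -0.62 in Fanci to 0.54 in Xpc. For 25 of the 31 (80.6%) the 95% confidence interval lay inside a 2-fold change in either direction, against 81.4% of all genes tested. The groups overlapped in all 31, while they did not in 3.48% of all genes tested. Among the 16 members below the filter (a scaled value of at least 10 in 4 libraries), Rnf8, a ubiquitin ligase recruited to breaks, had groups that did not overlap, at 2.47 to 3.68 in the 4 labelled ex vivo CLP and 3.83 to 5.09 in the 4 labelled cCLP. Its deposited whole numbers ran from 2 to 6, and a step of 1 in them is larger than the gap between the groups.

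Without the pair that lay apart from its labels, 8 of 33 members tested were higher in the cultured libraries and 7 were lower, 15 in all (45.5%). Of all 6573 genes tested 43.1% were called, 20.9% higher and 22.2% lower. The members' share is close to that of all genes, so the count itself says nothing particular about repair genes. Their median log2 fold change was 0.01, as was that of all genes (0.01). Higher were Xpc, Ddb1, Msh6, Rad52, Blm, Parp1, Apex1 and Fancl. Lower were Fanci, Neil3, Fancd2, Ung, Brca1, Parp2 and Atr. The groups did not overlap in 21 of 33, against 55.8% of all genes tested. Fancd2, Fanci and Neil3 passed the filter only through ex vivo CLP libraries, and Rad52 and Trp53bp1 only through cCLP libraries, so these 5 had to differ to be tested. The other 28 members tested reached 10 in a library of each group, and 11 of them were called, against 36.8% of the 5871 genes of which the same is true. In GENCODE vM21 coordinates (GRCm38), the lower members plotted by library further on are Fanci (ENSMUSG00000039187, chr7:79391929-79450264), Neil3 (ENSMUSG00000039396, chr8:53586867-53639065), Fancd2 (ENSMUSG00000034023, chr6:113531682-113597017) and Brca1 (ENSMUSG00000017146, chr11:101488764-101551955). The higher ones are Xpc (ENSMUSG00000030094, chr6:91489305-91515888), Msh6 (ENSMUSG00000005370, chr17:87975062-87990892), Parp1 (ENSMUSG00000026496, chr1:180568924-180601254) and Ddb1 (ENSMUSG00000024740, chr19:10605327-10629819). Of the members at 10 or more in both groups, Brca1, Xpc, Msh6, Parp1 and Ddb1 were called under every alternative setting that gave them a value. In bulk RNA, fewer cells that express a gene and less of its RNA per cell cannot be told apart.

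**Figure D2:**
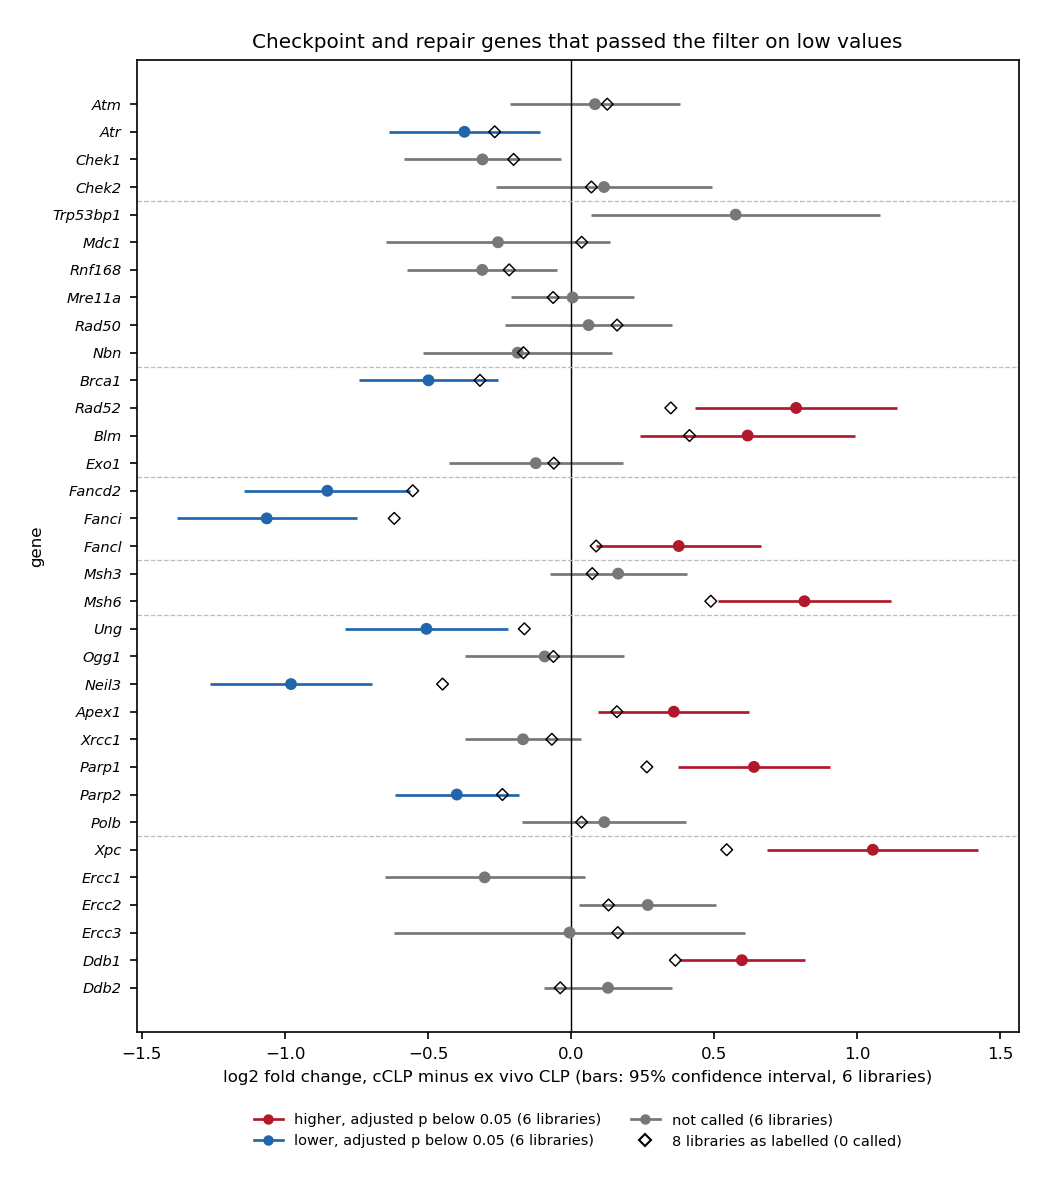
Each row is 1 of the members that passed the filter, ordered by role. Filled points are log2 fold changes (cCLP minus ex vivo CLP) over the 6 libraries with bars for the 95% confidence interval, in red where higher, blue where lower and grey where not called, and open diamonds are the values over the 8 libraries as labelled, all of them not called. Xpc (1.05) and Fanci (-1.06) have the largest values in either direction, and their diamonds (0.54 and -0.62) lie nearer to 0.

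Cell cycle genes were compared over the same 6 libraries, and those called were all lower, while the members called went both ways. Of all genes tested 20.9% were higher and 22.2% lower. Of 20 S phase genes, 19 were tested, 0 were higher and 15 lower in cCLP 2, 3 and 4, with a median log2 fold change of -0.58 and a summed scaled value of 2115 to 2202 in ex vivo CLP 1, 3 and 4 against 1426 to 1508. Pcna, the replication clamp, had a log2 fold change of -0.58 ± 0.13 (SE, n = 3 and 3, limma adjusted p = 0.00922). Of 20 G2 and M phase genes, 19 were tested, 0 were higher and 14 were lower, with Mki67, a marker of dividing cells, at -0.74 ± 0.13 (limma adjusted p = 0.0031). Over the 8 libraries as labelled, Pcna was at -0.38 ± 0.15 and Mki67 at -0.34 ± 0.26, and neither was called. Markers of other cells also differed. The 13 myeloid markers tested of 15 were all lower, at a summed 1449 to 3221 against 269.6 to 299.7, and 10 of the 15 were listed at 0 in cCLP 2, 3 and 4. The 7 dendritic cell markers tested of 9 were lower, at a summed 432.7 to 560.2 against 46.7 to 63.4. Only 1 of the 13 and 1 of the 7 reached a scaled value of 10 in a library of each group. The others passed the filter only through the fresh libraries, so they had to be lower to be tested. Committed B cell markers were at a summed 39.2 to 72.3 against 361.2 to 447.4, a sum carried by Rag1 and Rag2, which were higher, while Cd79b was lower and Pax5 was at 2 or less in all 6. Of the 3 committed B cell markers tested, 1 reached 10 in a library of each group, and the others had to differ to be tested. T and natural killer cell markers were at 50.3 to 64.7 against 4.21 to 11.5, nearly all of it Nkg7 (44.1, 48.2 and 61.8 against 4.21, 11.5 and 4.25), with Cd3e, Bcl11b and Ncr1 listed at 0 in all 8 libraries. Erythroid markers were at 151.9 to 189.1 against 113.7 to 125.6, mostly Tfrc, which dividing cells also express and which was not called (-0.30, limma adjusted p = 0.175). The part that any of these have in the values of the repair genes was not tested.

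Of the checkpoint kinases only Atr, which responds to single-stranded DNA at stalled forks, was called in the 6 libraries. It stood at 20.8, 19.8 and 16.7 in the fresh libraries and at 14.7, 13.5 and 15.3 in the cultured ones. The cultured values lay below the fresh ones by a narrow margin, with ex vivo CLP 2 (16.6) between them and cCLP 1 (17.2) within the fresh range. Its mean was 19.1 ± 2.14 (SD, n = 3) against 14.5 ± 0.942, a log2 fold change of -0.37 ± 0.12 (SE, limma adjusted p = 0.0313), and the call was lost in 5 of 6 fits that left out 1 library, each of ex vivo CLP 1 and 3 and cCLP 2, 3 and 4 (up to an adjusted p of 0.116). It was also lost with scaling by totals (0.108) or quantiles (0.0582). Over the 8 libraries the log2 fold change was -0.27 ± 0.12.

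Chek1, the kinase that Atr activates to stop cells in S and G2, stood at 22.1, 18.5 and 16.7 against 14.7, 15.4 and 15.3. These groups did not overlap either, but the log2 fold change of -0.31 ± 0.12 was not called (limma adjusted p = 0.067, 95% confidence interval -0.58 to -0.04), and it was called without ex vivo CLP 4 (adjusted p = 0.0345) or with upper-quartile scaling (0.0429). With 16.6 in ex vivo CLP 2 and 18.2 in cCLP 1, the value over the 8 libraries was -0.20 ± 0.12. Atm, the break-sensing kinase, and Chek2, its effector, overlapped between groups, with log2 fold changes of 0.08 (interval -0.21 to 0.38) and 0.12 (-0.26 to 0.49). Those intervals exclude a 2-fold change in either direction.

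Among the break sensing and chromatin signalling genes 0 of 6 tested were called by limma, and 2 had an unadjusted p below 0.05. Of all genes tested over the 6 libraries, 43.1% were below 0.05 even after adjustment. The member with the largest difference was Trp53bp1, which protects broken ends from resection. It stood at 9.81, 4.95 and 7.99 against 12.6, 11.5 and 10.2, with 8.85 in ex vivo CLP 2 and 8.61 in cCLP 1. All 3 cultured values were the higher ones, over a wide spread in the fresh cells, at means of 7.58 ± 2.46 and 11.4 ± 1.23. The log2 fold change was 0.58 ± 0.22 (limma adjusted p = 0.0656), and it was called without ex vivo CLP 1 (0.014) or with quantile scaling (0.04). It was below 10 in every fresh library and was tested over the 6 only because the cultured values were higher. It was not tested over the 8 libraries. Trp53bp1 overlaps Tubgcp4 on the opposite strand, and whether the authors' counting used strand is not stated, so its level is uncertain.

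Rnf168, the ubiquitin ligase that marks histone H2A at breaks and so brings Trp53bp1 there, stood at 45.4, 43.3 and 37.1 against 30.5, 33.6 and 36.5. The values were next to each other at the boundary of the groups, and the log2 fold change of -0.31 ± 0.11 was not called (limma adjusted p = 0.0584). Without ex vivo CLP 4 (0.0309) or with upper-quartile scaling (0.0319) it was called, and over the 8 libraries the value was -0.22 ± 0.11. The nuclease complex that first binds a broken end, made of Mre11a, Rad50 and Nbn, showed log2 fold changes of 0.01 (95% confidence interval -0.21 to 0.22), 0.06 (-0.23 to 0.35) and -0.19 (-0.52 to 0.14). All 3 overlapped between groups, and Mre11a overlaps Ankrd49, which had deposited values of 25 to 41. Mdc1, the scaffold that binds phosphorylated H2AX, overlapped as well (-0.26, -0.65 to 0.14).

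Of the homologous recombination genes 4 of 9 were tested, and 2 were higher and 1 lower (all genes 20.9% and 22.2%). Brca1, which opens the recombination route at a break, stood at 15.9, 18.5 and 17.4 in the fresh libraries and at 11.6, 11.5 and 12.7 in the cultured ones. The library labelled ex vivo CLP 2 (12.2) lay among the cultured values and cCLP 1 (14.4) lay between the groups. Means were 17.3 ± 1.31 and 11.9 ± 0.681, a log2 fold change of -0.50 ± 0.11 (limma adjusted p = 0.00632), which was called with each library left out in turn. It was -0.32 ± 0.14 over the 8 libraries and not called.

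Rad52, which anneals complementary single strands, moved the other way. It stood at 7.36, 6.18 and 5.09 in the fresh libraries and at 11.6, 10.6 and 11.9 in the cultured ones, with 12.2 in ex vivo CLP 2 and 5.74 in cCLP 1. The values fall into a low set and a high set with no library between them, and the pair that lay apart sits with the opposite label. The log2 fold change was 0.79 ± 0.15 (limma adjusted p = 0.00429) and 0.35 ± 0.32 over the 8 libraries. Rad52 was below 10 in every fresh library and was tested over the 6 only because the cultured values were higher. Blm, the helicase that dissolves recombination intermediates, stood at 14.7, 9.89 and 14.5 against 21.1, 22.1 and 17.8, with 15.5 in ex vivo CLP 2 and 13.4 in cCLP 1. Here ex vivo CLP 2 stayed with the fresh libraries, the 1 called member of the 15 in which it did. The log2 fold change of 0.62 ± 0.16 (limma adjusted p = 0.0169) was not called without cCLP 2 (0.0592) or cCLP 3 (0.063), and over the 8 libraries it was 0.41 ± 0.19. Exo1, the nuclease that lengthens single-stranded ends, overlapped between groups (-0.12, interval -0.43 to 0.18).

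The other 5 recombination genes lay below the filter in the 6 libraries, and they were fitted only when every gene was, which was added with the values known. Among all 13755 genes so fitted 36.4% were called, 16.3% higher and 20.1% lower. Of the 47 members, 8 were higher and 13 lower. The 6 that joined the lower side, Brca2, Bard1, Rad51c, Rad54l, Fanca and Neil1, are named here because of that call. Brca2, which acts on resected ends during recombination, had deposited values of 8, 8 and 16 in the fresh libraries and of 5, 4 and 6 in the cultured ones, or 9.81, 9.89 and 11.6 against 5.26, 3.84 and 5.09 when scaled. The library labelled ex vivo CLP 2 was at 4.42 and cCLP 1 at 11.5, so the low and the high values again split across the labels. Its log2 fold change was -1.0 ± 0.14 (limma adjusted p = 0.00125). Bard1, the partner of Brca1, was at -0.74 ± 0.16 (0.00848) and Rad54l, a motor protein of the strand exchange step, at -0.72 ± 0.14 (0.00421). Rad51c, which acts in the same pathway, had deposited values of only 1 to 3, so its log2 fold change of -0.93 ± 0.20 (0.00729) rests on differences of 1 or 2. Palb2, which links Brca1 to Brca2, was at 0.10 ± 0.17 and not called. Rad54l overlaps Lrrc41 on the opposite strand, at deposited values of 15 to 38.

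Among the crosslink repair genes 3 of 6 were tested, and 2 were lower and 1 higher (all genes 22.2% and 20.9%). Fanci and Fancd2 form the pair of proteins that is ubiquitinated at a crosslink. Fanci stood at 14.7, 14.8 and 11.6 in the fresh libraries and at 6.32, 5.76 and 5.94 in the cultured ones, from deposited values of 12, 12 and 16 against 6, 6 and 7. A wide gap lay between the sets, and the library labelled ex vivo CLP 2 (7.74) was near the low set and cCLP 1 (13.4) inside the high set. Its means were 13.7 ± 1.82 and 6.01 ± 0.283, a log2 fold change of -1.06 ± 0.14 (limma adjusted p = 0.000506), and -0.62 ± 0.31 over the 8 libraries. Fancd2 stood at 13.5, 14.8 and 13.1 against 6.32, 7.68 and 7.64, with 8.85 in ex vivo CLP 2 and 11.5 in cCLP 1. Its groups were as clearly apart, at -0.85 ± 0.13 (limma adjusted p = 0.00108), and -0.55 ± 0.22 over the 8 libraries. Both were below 10 in every cultured library and were tested only because the fresh values were higher. Fanci overlaps Polg on the opposite strand, which had deposited values of 9 to 21.

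Fancl, the ubiquitin ligase that acts on this pair, was higher in the cultured cells. It stood at 9.81, 11.1 and 9.45 against 12.6, 12.5 and 15.3, with 15.5 in ex vivo CLP 2 and 8.61 in cCLP 1. The log2 fold change of 0.38 ± 0.13 (limma adjusted p = 0.0406) lost its call in 5 of 6 fits without 1 library, the exception being ex vivo CLP 3 (up to 0.167). Over the 8 libraries the value was 0.09 ± 0.21, and it turned to -0.02 without cCLP 4. It overlaps Vrk2 on the opposite strand. The remaining 3 were below the filter. Fanca, part of the same ligase complex, had deposited values of 6, 8 and 12 against 4, 4 and 5 and a log2 fold change of -0.91 ± 0.14 in the fit over every gene (limma adjusted p = 0.00158). It overlaps Zfp276 on the opposite strand. Fancc, also of that complex, and Fancm, the motor protein that recruits it, were at -0.06 ± 0.14 and 0.16 ± 0.14 and not called.

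**Figure D3:**
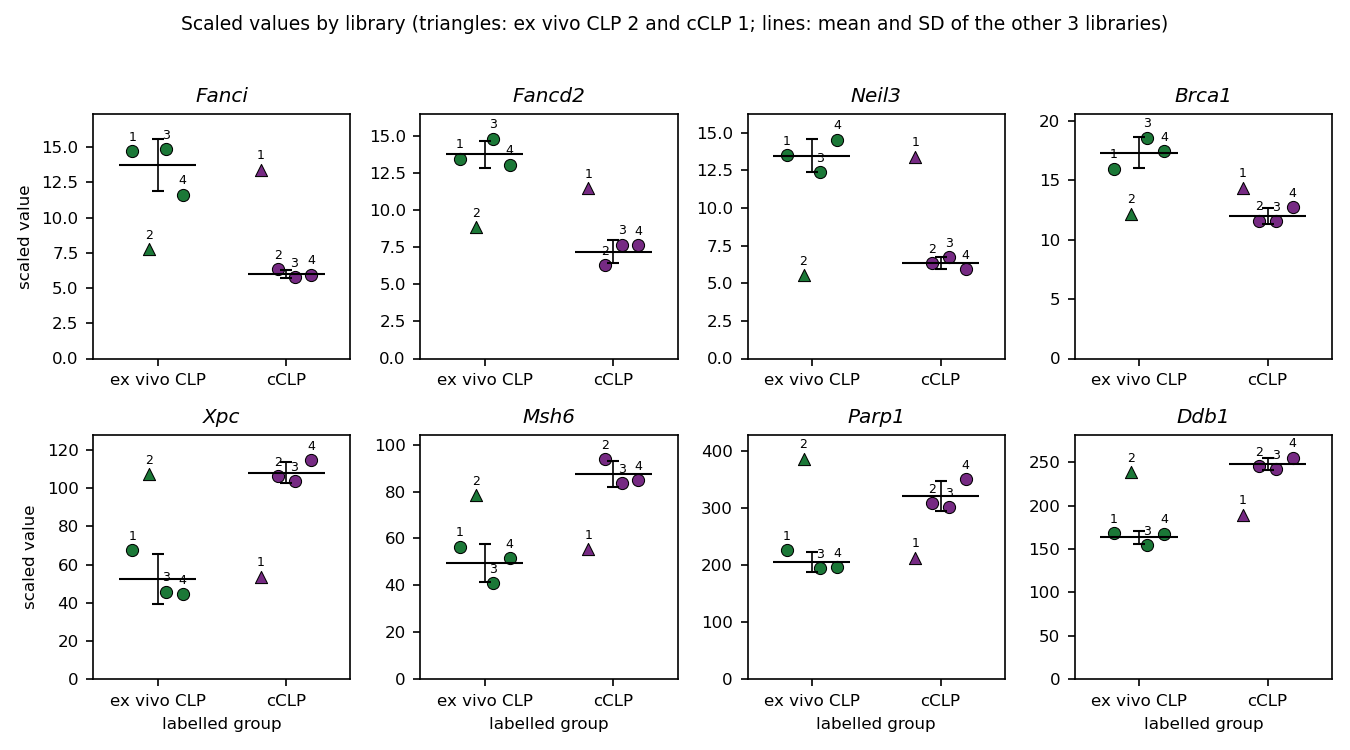
Scaled values of 8 members by library, with the library number beside each point. Circles are ex vivo CLP 1, 3 and 4 (green) and cCLP 2, 3 and 4 (purple), triangles are the pair that lay apart from its labels, and lines give the mean and SD of the circles. In the upper row (Fanci, Fancd2, Neil3, Brca1) the green circles lie above the purple ones, in the lower row (Xpc, Msh6, Parp1, Ddb1) below them, and the triangles lie nearer the circles of the other label in all but the Brca1 value of cCLP 1.

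In mismatch repair, Msh6, which recognises mispaired bases, was higher in the cultured cells. It stood at 56.4, 40.8 and 51.6 in the fresh libraries and at 93.7, 83.6 and 84.9 in the cultured ones. The pair labelled ex vivo CLP 2 (78.5) and cCLP 1 (55.5) stood with the other label, and no value lay midway. Means were 49.6 ± 7.99 and 87.4 ± 5.51, a log2 fold change of 0.82 ± 0.13 (limma adjusted p = 0.00165), and 0.49 ± 0.23 over the 8 libraries. The call held with each library left out. The end of Msh6 overlaps Fbxo11 on the opposite strand, at deposited values of 10 to 25, well under those of Msh6. Msh3, which takes the place of Msh6 for larger loops, stood at 17.2, 14.8 and 17.4 against 17.9, 18.3 and 19.5. Its groups did not overlap but lay close, and the log2 fold change of 0.16 (95% confidence interval -0.07 to 0.40) was not called. Whether Msh6 differed more than Msh3 was not tested. Pms2, which acts after recognition, was below the filter, at -0.06 ± 0.12.

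Of the base excision and single-strand break repair genes 8 of 9 were tested, and 2 were higher and 3 lower (all genes 20.9% and 22.2%). Among the glycosylases, which cut out a damaged base, Neil3 stood at 13.5, 12.4 and 14.5 in the fresh libraries and at 6.32, 6.72 and 5.94 in the cultured ones. The library labelled ex vivo CLP 2 was at 5.53, the lowest of the 8, and cCLP 1 at 13.4, inside the high set. The log2 fold change was -0.98 ± 0.12 (limma adjusted p = 0.000453), and -0.45 ± 0.35 over the 8 libraries. Neil3 was below 10 in every cultured library and was tested over the 6 only because the fresh values were higher. Ung, which removes uracil from DNA, stood at 23.3, 17.3 and 20.4 against 14.7, 13.5 and 13.6, with 12.2 in ex vivo CLP 2 and 23.0 in cCLP 1. It was lower in all 3 cultured libraries, at -0.51 ± 0.12 (limma adjusted p = 0.0124), though not called when libraries were scaled by their totals (0.0679). It was -0.16 ± 0.23 over the 8 libraries. Neil1, which removes oxidised bases, was below the filter and at -0.57 ± 0.12 in the fit over every gene (limma adjusted p = 0.00674), on deposited values of 6 to 11 against 5 and 6. Ogg1, which removes 8-oxoguanine, overlapped between groups, at -0.09 (95% confidence interval -0.37 to 0.19).

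Parp1, the abundant enzyme that marks strand breaks with poly(ADP-ribose), stood at 225.6, 194.1 and 196.2 in the fresh libraries and at 308.5, 301.6 and 350.6 in the cultured ones. The pair labelled ex vivo CLP 2 (385.9, the highest of all) and cCLP 1 (212.3) were again with the other label. Its means were 205.3 ± 17.6 and 320.3 ± 26.5, a log2 fold change of 0.64 ± 0.12 (limma adjusted p = 0.00295), and 0.26 ± 0.25 over the 8 libraries. Parp2, its smaller relative, moved in the opposite direction. It stood at 56.4, 55.6 and 50.9 against 41.1, 38.4 and 43.3, with 42.0 in ex vivo CLP 2 and 49.7 in cCLP 1. The groups were apart, at -0.40 ± 0.09 (limma adjusted p = 0.0104), and without cCLP 3 the call was lost (0.054). Over the 8 libraries the value was -0.24 ± 0.12. Both enzymes were called, in opposite directions, in the same libraries.

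Apex1, the endonuclease that cuts at the site a glycosylase leaves, was named after its value was seen, as the last called member of this role. It stood at 156.9, 169.4 and 140.2 against 182.2, 202.7 and 213.9, with 210.1 in ex vivo CLP 2 and 154.9 in cCLP 1. The cultured values were all higher, at a log2 fold change of 0.36 ± 0.11 (limma adjusted p = 0.0352), and 0.16 ± 0.15 over the 8 libraries. The call was lost without ex vivo CLP 4 (0.109), cCLP 3 (0.111) or cCLP 4 (0.128), and Apex1 overlaps Pip4p1 on the opposite strand. Xrcc1, the scaffold of single-strand break repair, and Polb, the gap-filling polymerase, were not called, at -0.17 (95% confidence interval -0.37 to 0.04) and 0.12 (-0.17 to 0.40).

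Of the nucleotide excision repair genes 6 of 9 were tested, and 2 were higher and 0 lower (all genes 20.9% and 22.2%). Xpc, which recognises distorted helices across the genome, stood at 67.4, 45.7 and 44.3 in the fresh libraries and at 106.3, 103.7 and 114.6 in the cultured ones. Every cultured value was above every fresh one, with the library labelled ex vivo CLP 2 at 107.3 and cCLP 1 at 53.6, each in the range of the other label. Means were 52.5 ± 12.9 and 108.2 ± 5.67, a log2 fold change of 1.05 ± 0.16 (limma adjusted p = 0.00123), the largest increase of any member, and 0.54 ± 0.34 over the 8 libraries. Ddb1, part of the complex that binds ultraviolet lesions and an adaptor of Cul4 ubiquitin ligases with many other substrates, stood at 167.9, 154.5 and 167.8 against 245.3, 242.1 and 255.5. Both sets were tight, with 238.8 in ex vivo CLP 2 and 189.4 in cCLP 1. The log2 fold change was 0.60 ± 0.10 (limma adjusted p = 0.00165) and 0.36 ± 0.16 over the 8 libraries, and the calls of Xpc and Ddb1 held with each library left out. Ddb1 overlaps Tkfc on the opposite strand, whose deposited values were 2 to 9. Ddb2, the subunit that binds the lesion with Ddb1, overlapped between groups (0.13, 95% confidence interval -0.10 to 0.35).

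Among the members, the enzymes that open and cut the DNA after recognition were not called, while other TFIIH genes given further on were. Ercc2, a helicase of the transcription factor TFIIH, stood at 17.2, 14.8 and 15.3 against 17.9, 19.2 and 20.4 (0.27 ± 0.10, limma adjusted p = 0.07). Ercc3, the other TFIIH helicase, was widely spread, at 15.9, 8.65 and 19.6 against 15.8, 14.4 and 11.9 (-0.01, 95% confidence interval -0.62 to 0.61). Ercc1, of the nuclease that cuts on one side of the lesion, was at -0.30 (-0.65 to 0.05). Below the filter, Xpa, which verifies the damage, Ercc4, the partner of Ercc1, and Ercc5, the nuclease of the other side, were at 0.25 ± 0.14, 0.38 ± 0.19 and 0.20 ± 0.14 and not called. Whether the recognition genes as a set differed more than these was not tested.

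Among the 15 called members, the library labelled ex vivo CLP 2 was nearer to the mean of cCLP 2, 3 and 4 in 14 (all but Blm), and the library labelled cCLP 1 was nearer to the mean of ex vivo CLP 1, 3 and 4 in 14 (all but Brca1). Of all genes called in the 6 libraries, 91.4% and 93.7% were so placed. The members lie on 16 chromosomes with at most 6 on any one.

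Other genes of the same pathways, 111 in a list drawn up from general knowledge, gave 63 tested, 7 higher and 16 lower over the 6 libraries (all genes 20.9% and 22.2%), with a median log2 fold change of -0.10. Of the 63 tested, 57 reached a scaled value of 10 in a library of each group. The others passed the filter only through the group where they were higher, so they had to differ to be tested. Over the 8 libraries as labelled, 0 of 63 tested were called. Of the checkpoint genes 5 of 12 tested were lower and 0 higher, with Cdc25b, a phosphatase that drives entry into mitosis, at -1.14 ± 0.17 (limma adjusted p = 0.00128). Break signalling had 2 higher and 3 lower of 10, from Rnf169, which competes for Rnf168's histone mark (0.65 ± 0.17, 0.0152, not called without cCLP 2 or cCLP 4), to H2afx, the histone phosphorylated at breaks (-0.91 ± 0.18, 0.00496). In homologous recombination 4 of 13 were lower and 0 higher, with Helb, a helicase that restrains end resection, at -0.87 ± 0.11 (0.000442).

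Crosslink repair had 1 higher and 2 lower of 5 tested (all genes 20.9% and 22.2%). Wdr48, the partner of the enzyme that removes ubiquitin from Fancd2 and Fanci, was at 0.70 ± 0.10 (limma adjusted p = 0.000676), and Faap20, which joins Fanca in the core complex, at -0.64 ± 0.13 (0.00446). Usp1, that enzyme itself, was at -0.60 ± 0.12 (0.00495) and is named after its value was seen. In mismatch repair 0 of 2 were called by limma, and 0 had an unadjusted p below 0.05. Base excision repair had 1 higher and 1 lower of 9, Lig3, the ligase that works with Xrcc1 (0.37 ± 0.11, 0.027, not called without ex vivo CLP 4, cCLP 3 or cCLP 4), and Hmgb1, a chromatin protein (-0.75 ± 0.11, 0.000887). Hmgb1 has many processed copies in the genome, between which reads can be split. Nucleotide excision repair had 3 higher and 1 lower of 12, among them Gtf2h3, a core subunit of TFIIH (0.84 ± 0.15, 0.00253), and Mnat1, of its kinase module (-0.44 ± 0.11, 0.0134, not called without cCLP 2). Gtf2h4 and Cdk7, also of TFIIH, were higher too and are named after their values were seen. Cdk7 was not called without cCLP 4 (limma adjusted p = 0.0533), nor Gtf2h4 without ex vivo CLP 4 or any 1 cultured library.

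**Figure D4:**
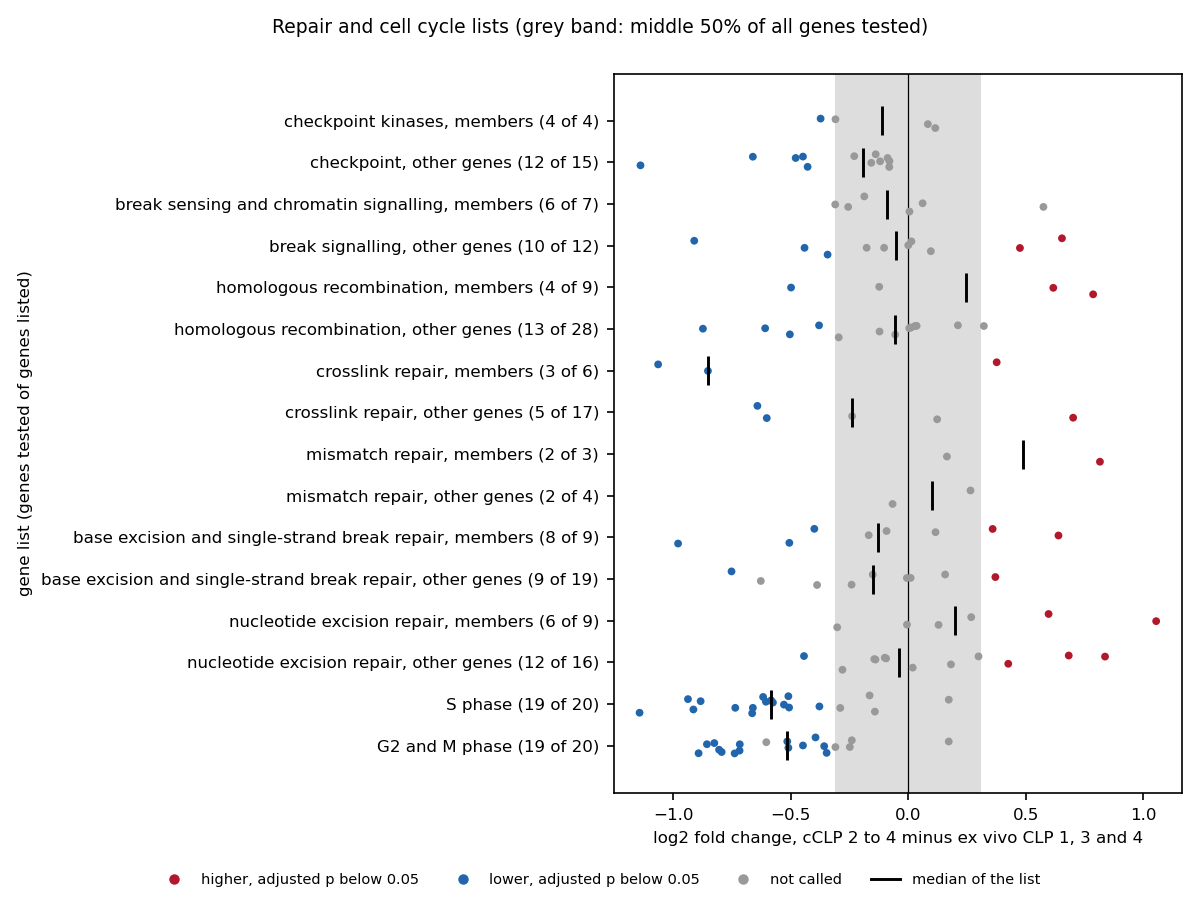
Each point is the log2 fold change of 1 gene, cCLP 2, 3 and 4 minus ex vivo CLP 1, 3 and 4, for the 7 roles of the members, the other genes of the same pathways and the 2 cell cycle lists. Red is higher, blue lower and grey not called, bars are list medians and the grey band runs from the lower to the upper quartile of all genes tested (-0.31 to 0.31). Repair lists spread to both sides, while the S phase and G2 and M phase medians lie at -0.58 and -0.51.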

How the data were processed

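RNA of 4 ex vivo CLP and 4 cCLP libraries was sequenced as stranded, ribosome-depleted, paired-end libraries, per the labels' protocols. The submitters' processing notes name GRCm38, HTSeq 1.0.6, Bowtie2 and TopHat2. The strand setting, the annotation and any later scaling are not given in the sources used here. Each deposited value is a score on an unnamed scale, written without decimals for every Ensembl gene ID. The test planned on counts was not used, because the index of dispersion between replicates (variance over mean) averaged 0.541 (ex vivo CLP 3 and 4) and 0.26 (cCLP 3 and 4), where counts give about 1 or more.

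Symbols and positions came from GENCODE vM21, which matched 37607 of 39179 IDs. Libraries were scaled by trimmed means of log ratios, trimming 30% by ratio and 5% by level. Genes entered the test if they reached a scaled value of 10 in 4 of 8 or 3 of 6 libraries. Linear models of log2(scaled value + 1), which understate changes of low genes, were fitted to the whole table with limma 3.58.1 in R 4.3.3 (trend, robust). Tests were two-sided, Benjamini-Hochberg adjustment covered every gene tested, and a gene was called at an adjusted p below 0.05. SEs and 95% intervals are of the log2 fold change. The script was tested on simulated data first. Groups came from the labels, and 0 pairs of libraries were identical.

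Named were 7 anchors (Chek1, Trp53bp1, Brca1, Fancd2, Msh6, Parp1, Xpc), up to 4 called members per role by size of change, the highest member of a role without a call, and the largest called change in each direction per list of other repair genes. This named 17 members and 10 other genes. Other named genes were described to complete their role. The members and lists were chosen with earlier results of these data known. Alternatives were scaling by totals, upper quartiles, quantiles or relative log expression, other pseudocounts and filters, a replicate block, and each library left out.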

Additional observations from a re-analysis of the deposited data

Results flagged for a closer look

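In 6 of 36 sets of 4 libraries (18 members by 2 labelled groups), 1 library's scaled value stood further from the other 3 than Dixon's 95% critical value of 0.829 allows, where chance gives about 1 in 20. That share is no yardstick here, since most of these members were named because the other 6 libraries differ, and flags for the pair that lies with the other group follow from that choice. In 5 of the 6 this was a library that lay with the other group across all genes. The library labelled ex vivo CLP 2 stood high in Ddb1, at 238.8 against 154.5 to 167.9, and in Parp1, at 385.9 against 194.1 to 225.6. The library labelled cCLP 1 stood high in Fanci, at 13.39 against 5.764 to 6.318, in Neil3, at 13.39 against 5.943 to 6.724, and in Ung, at 22.96 against 13.45 to 14.74. In Blm, ex vivo CLP 3 stood low, at 9.889 against 14.53 to 15.48.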

How the results depend on the processing

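Values are low, whole and of unknown depth, so a step of 1 in the deposited number limits what can be seen in members under about 10. Over the 8 libraries 0 members were called by limma under any alternative that kept all 8, and without the pair that lay with the other group 1371 genes were higher and 1459 lower, with 8 and 7 members. The median log2 fold change of the members tested, 0.0366, became -0.0108 with relative log expression, 0.0751 with total scaling, -0.0197 without a filter and -0.0491 with a filter on a mean of 5, and ran from -0.037 to 0.0481 with 1 library left out. Fancl turned to -0.0196 over the 8 libraries without cCLP 4 (range up to 0.234). Over the 6 libraries, genes higher were 2236 without a filter and 891 with a filter at 20 (888 to 1567 with 1 library left out), and genes lower 2766 without a filter (1193 to 1736). Members higher were 5 with a filter at 20 (5 to 9 with 1 left out), and members lower 13 without a filter, 12 with a mean of 5 and 1 with a filter at 20 (5 to 9), where several low genes gave no value. The members' median became 0.0987 with total scaling and 0.0888 with a filter at 20 (-0.0391 to 0.0826 with 1 left out). The cause was not tested, apart from the filters, which change which genes are tested. Brca1, Ddb1, Msh6, Parp1 and Xpc were called under every alternative that gave them a value, as were Fancd2, Fanci, Neil3 and Rad52, which passed the filter only through their higher group.

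Replicate numbers are shared by the groups. After removal of group means, the correlation across genes between same-numbered libraries was 0.595, 0.843, -0.575 and -0.86 for numbers 1 to 4. Each mean covered all 4 libraries of a label, and so included ex vivo CLP 2 or cCLP 1, which lay with the other group. That placement alone would make numbers 1 and 2 positive and numbers 3 and 4 negative. The correlations therefore cannot show whether same-numbered libraries are pairs, and the main fits used no pairing. With the replicate block 0 genes were called over 8 libraries, and 1229 were higher and 1271 lower over 6, where only numbers 3 and 4 occur in both groups. There Atr (adjusted p = 0.17), Fancl (0.117) and Parp2 (0.0919) were not called by limma and Trp53bp1 (0.00521) was.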
